A study of Mus musculus with 6 samples.

Results

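The DNA-repressed set described here holds 1278 array probes that were lower after DNA transfection in cells labelled mouse embryonic fibroblasts that carry Sting and moved little in those without it. They were chosen from 14785 probes detected on both the wild-type and the Trex1-deficient mock arrays, a share of 8.64%, and from 45281 probes in all. For this choice each intensity was reduced by the median of its array, floored at 16 and taken to log2. A member was at least 1 log2 unit lower with DNA in wild type, at least 0.7 lower in Trex1-deficient cells, and within 0.7 of its mock value in cells lacking both genes. The DNA differences within each genotype are therefore the selection itself and are given as a description, with no test. The members carry the names of 960 genes, 11.1% of the 8655 genes named for the same detected probes. The mirror selection, with the same limits in the upward direction, found 320 probes, or 2.16%.

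Cytosolic DNA is sensed by cGAS, which makes a cyclic dinucleotide that binds STING, and STING then drives the kinase TBK1, the transcription factor IRF3 and NF-kB. The exonuclease TREX1 removes DNA from the cytosol, and cells without it can signal through STING with no DNA added. The pathway is best known for the genes it turns on, the type I interferons, the interferon-stimulated genes and inflammatory cytokines. The transcripts described here are those that were scarcer during the same hours.

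Gene expression was measured on 6 Illumina arrays, 1 for each of 3 genotypes with and without ISD (interferon stimulatory DNA), a double-stranded oligonucleotide. The titles name Sting and Trex1 double-deficient cells (STKO), Trex1-deficient cells (TKO) and wild-type cells (WT), each with ISD at 4 µg/ml for 6 h or as mock. All cells were labelled as fibroblasts of midgestation embryos, with the same embryonic day for all 6 arrays, and all of strain C57BL6/129Sv. The sources used here give neither the mock procedure nor the number of embryos pooled. Because every group is 1 array, no difference has a replicate check, no p-value is given, and the number of arrays limits the precision. Detected probes numbered 14488 to 16177 per array and the median raw intensity was 76.8 to 85.3. A genotype entry in the labels contradicts the titles on Sting for 5 of the 6 arrays. The Sting1 probe, at log2 5.64 and 5.81 on the STKO ISD and mock arrays, stood at 8.06 and 7.13 on the TKO ones and at 8.92 and 7.34 on the WT ones, so it was lowest on the arrays titled STKO. A Trex1 probe (ILMN_3131766) was at 6.43 and 6.53, at 8.95 and 8.08, and at 12.14 and 9.29 on the same arrays in the same order. Where these probes lie relative to the deleted sequence is not known, so they check the titles only in part.

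Fibroblast cultures can hold other cells, so marker genes were read on every array. All 6 fibroblast markers (Col1a1, Col1a2, Col3a1, Pdgfra, Thy1 and Dcn) were detected, with a log2 summed level of 12.9 to 13.4 per array. The macrophage markers Adgre1, Csf1r and Ptprc were also detected on all 6 arrays, with a log2 summed level of 14.8 to 15.3, and no probe was named for the remaining marker Cd68. The label of fibroblasts alone therefore does not cover all the markers present, and how many cells of each type the cultures held is not known. None of the 4 endothelial markers was detected on any array. With ISD the summed macrophage markers differed from mock by 0.08 log2 units in STKO, -0.34 in TKO and -0.28 in WT. The summed fibroblast markers differed by 0.16, 0.03 and -0.18. Single macrophage markers did not all follow their sum. Of 7 probes, 0 were 2-fold lower with ISD in any genotype, while 1 was 2-fold higher in TKO and 2 in WT. In bulk RNA, fewer cells of a type and less RNA per cell cannot be told apart.

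Levels below are log2 values after background correction and quantile normalization with limma's neqc, which adds an offset of 16 before the log. Differences on this scale understate the change of dim probes. A probe counts as different if either array compared detected it and its values stood at least 2-fold apart. If the dimmer array did not detect it, the fold is a lower bound, taken against the lowest signal of any detected probe there or the probe's own signal, whichever was higher. Several probes can report 1 gene.

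The 25 members with the lowest mean of the TKO and WT differences include several cell-surface receptors of immune cells. Gpr183, an oxysterol receptor that guides migrating leukocytes, was at 9.68 with ISD and 10.07 in mock in STKO, at 6.86 and 9.22 in TKO, and at 6.34 and 10.47 in WT. It was 1.30-fold lower with ISD in STKO, 5.14-fold lower in TKO and 17.6-fold lower in WT. The WT and TKO ISD arrays were thus far below all 4 other arrays for this receptor. Cnr2, the cannabinoid receptor of immune cells, had 2 member probes. The first (ILMN_1235201) was at 8.10 and 8.42 in STKO, at 5.73 and 8.07 in TKO, and at 4.80 and 8.19 in WT, with ISD before mock in each pair. It was not detected on the TKO and WT ISD arrays, so it was at least 4.90-fold lower in TKO and at least 4.88-fold lower in WT. Its mock levels lay between 8.07 and 8.42 in the 3 genotypes. Cd300lb, an activating receptor of myeloid cells, was at 8.13 and 8.47 in STKO, at 5.23 and 7.52 in TKO, and at 4.96 and 8.11 in WT. It too was lost from detection with ISD, at least 3.36-fold lower in TKO and at least 4.60-fold lower in WT. Cxcr4, the receptor of the chemokine Cxcl12, was at 9.64 and 9.16 in STKO, at 8.42 and 9.57 in TKO, and at 7.96 and 11.02 in WT. This receptor was 2.22-fold lower with ISD in TKO and 8.33-fold lower in WT, and it was the higher of the pair on the STKO ISD array.

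Other receptors and sensors of myeloid cells lay among the less extreme members. A list of 36 myeloid and chemoattractant receptors was put together after these values were seen, and 8 of its 30 detected genes had member probes: Gpr183, Cnr2, Cxcr4, Cd300lb, Cx3cr1, Il6ra, P2ry6 and Tlr13. Over all detected genes the share with a member was 11.1%. Cx3cr1, the fractalkine receptor, was at 9.89 and 9.93 in STKO, at 8.56 and 9.33 in TKO, and at 9.61 and 11.32 in WT. P2ry6, a receptor for extracellular UDP, was at 12.08 and 12.17 in STKO, at 10.31 and 11.61 in TKO, and at 11.04 and 12.39 in WT. With ISD, Cx3cr1 differed by -0.04 in STKO and P2ry6 by -0.09, while both were lower in TKO and WT. The list did not move one way: of 42 of its probes tested in WT, 10 were 2-fold lower and 9 were 2-fold higher, beside 5.43% and 7.46% of all tested probes. The macrophage marker sums given above moved by -0.34 in TKO and -0.28 in WT. Of the 7 probes behind them, 0 were 2-fold lower in either, and 1 was 2-fold higher in TKO and 2 in WT. The part of these markers in the differences was not tested.

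Sesn1, a p53-induced sestrin that restrains mTORC1, had 2 probes among the 25 leading members. The first (ILMN_3136744) was at 9.56 and 10.15 in STKO, at 7.11 and 9.18 in TKO, and at 7.37 and 10.71 in WT, which is 1.5-fold, 4.18-fold and 10.1-fold lower with ISD. The second gave 1.41-fold, 3.99-fold and 8.92-fold, the same order of genotypes. Both probes are members, and the rule favours this order. Ddit4l, a less extreme member and a relative of the mTORC1 inhibitor REDD1, was at 10.02 and 10.33 in STKO, at 6.95 and 8.29 in TKO, and at 8.38 and 10.41 in WT. Flcn, the folliculin gene that acts on amino-acid signalling to mTORC1, had 2 members, of which ILMN_1213483 was at 10.63 and 10.67 in STKO, at 9.40 and 10.34 in TKO, and at 8.89 and 10.83 in WT. Of 10 detected genes on a list of sestrin, REDD and folliculin genes of mTORC1 signalling, drawn up after the values were seen, these 3 had members. The share over all detected genes was 11.1%. Over the whole list 8 of 20 tested probes were 2-fold lower and 1 was higher in WT, and 3 of 19 were lower and 2 higher in TKO, where the list's median difference was -0.0094. Over all tested probes 5.43% were lower and 7.46% higher in WT, and 1.46% and 3.98% in TKO. Members are among the probes of this list, so nothing is read from its counts.

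E2f2, a transcription factor that drives entry into DNA synthesis, had 2 leading probes. ILMN_2673776 was at 8.95 and 9.40 in STKO, at 7.0 and 8.68 in TKO, and at 5.73 and 9.44 in WT, where it was not detected with ISD and was at least 11.5-fold lower. Cdca7, a target of E2F factors and of Myc, was at 10.21 and 10.31 in STKO, at 7.77 and 9.71 in TKO, and at 7.12 and 9.41 in WT. It was 1.07-fold, 3.85-fold and 4.86-fold lower with ISD in STKO, TKO and WT. The promoters of these genes are shown because they hold E2F letters, and that of Gpr183 as a leading member without them, a choice made after the letters were seen. They are RefSeq sequences of GRCm38.p6, from 250 bases before to 50 bases after a gene start, at chr4:136172024-136172323 (plus strand) for E2f2, chr2:72475969-72476268 (plus strand) for Cdca7 and chr14:121965144-121965443 (minus strand) for Gpr183. Capitals mark a match on either strand to the E2F letters TTTCCCGC or TTTGGCGC.
E2f2: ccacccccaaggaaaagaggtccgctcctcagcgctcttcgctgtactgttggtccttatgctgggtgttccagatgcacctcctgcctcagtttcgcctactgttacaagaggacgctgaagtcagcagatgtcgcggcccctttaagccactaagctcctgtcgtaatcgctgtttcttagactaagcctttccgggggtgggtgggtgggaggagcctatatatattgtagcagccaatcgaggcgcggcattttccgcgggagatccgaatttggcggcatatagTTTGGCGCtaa
Cdca7: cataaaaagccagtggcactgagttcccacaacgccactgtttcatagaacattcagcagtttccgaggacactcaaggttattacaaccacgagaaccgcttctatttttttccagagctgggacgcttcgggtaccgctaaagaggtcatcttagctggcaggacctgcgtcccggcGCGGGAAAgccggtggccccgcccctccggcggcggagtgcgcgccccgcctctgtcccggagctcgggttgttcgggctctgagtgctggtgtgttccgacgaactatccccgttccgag
Gpr183: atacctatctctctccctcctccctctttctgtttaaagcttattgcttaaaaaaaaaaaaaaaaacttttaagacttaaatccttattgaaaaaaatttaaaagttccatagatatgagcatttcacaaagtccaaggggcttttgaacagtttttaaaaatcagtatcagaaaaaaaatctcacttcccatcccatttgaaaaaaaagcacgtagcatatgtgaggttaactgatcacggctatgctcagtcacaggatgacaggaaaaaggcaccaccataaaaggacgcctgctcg
The E2f2 and Cdca7 windows each held 1 such match and the Gpr183 window held none. Of the 20 named genes among the leading members, 16 had a window, and 2 of those 16 held a match. The same letters were present in 4.11% of the 779 member genes with a promoter window, in 3.22% of 7086 detected genes and in 1.63% of all 27025 genes of the table. The E-box CACGTG was present in 12.3%, 10.9% and 7.24% of the same windows, and the GC box GGGCGG in 66.0%, 66.3% and 35.9%. The interferon-response motif, searched as GAAA blocks with 2 bases between them, was present in 0.899% of member windows, 3.06% of detected-gene windows and 3.49% of all windows. A short form of the NF-kB site, GGGA and TTCC with 2 bases between them, was present in 0.899%, 1.34% and 1.43%. Both strands were searched for each motif, and a match describes the letters in a window and is not a binding site.

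Genes of chromosome segregation recurred through the set. On a list of 36 such genes, again drawn up after the values were seen, 16 of 30 detected genes had member probes, together 22 of 47 probes, beside 11.1% of all detected genes and 8.64% of all detected probes. Kif18a, a kinesin that aligns chromosomes on the spindle, was at 8.11 and 8.35 in STKO, at 5.70 and 6.99 in TKO, and at 5.95 and 8.37 in WT. Its probe was not detected with ISD in TKO. Kif18b was at 8.75 and 8.85 in STKO, at 6.83 and 7.78 in TKO, and at 7.29 and 8.81 in WT (ILMN_2922942). Cdc20, an activator of the anaphase-promoting complex, was at 10.85 and 11.20 in STKO, at 8.58 and 9.46 in TKO, and at 9.93 and 11.04 in WT (ILMN_2867899). All 3 were lower on TKO mock than on STKO mock or WT mock, and for Cdc20 even TKO mock lay below WT ISD. Other members of this group were Kif2c, Kif20b, Kif23, Kifc1, Incenp, Ska2, Ska3, Espl1, Sgo1, Sgo2a, Aspm, Mis12 and Esco2. Aspm, a spindle-pole protein, was at 8.36 and 8.06 in STKO, at 5.98 and 7.06 in TKO, and at 7.52 and 8.82 in WT. Over the list, 20 of 51 tested probes were 2-fold lower with ISD in WT, 7 of 47 in TKO and 0 of 49 in STKO, and 0 were higher in any genotype. The shares of all tested probes that were lower were 5.43% in WT, 1.46% in TKO and 0.0674% in STKO. Members chosen for this very pattern are among the probes of the list, so nothing is read from these counts.

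On the separate list of 25 DNA replication and cell cycle genes, 3 of 33 detected probes were members, a share near the 8.64% of all detected probes. Aurka, the mitotic kinase, was at 10.49 and 10.77 in STKO, at 8.43 and 9.42 in TKO, and at 9.42 and 10.44 in WT. Top2a, the topoisomerase that untangles replicated DNA, was at 7.12 and 7.38 in STKO, at 5.38 and 6.17 in TKO, and at 5.67 and 7.21 in WT. This probe was not detected with ISD in TKO or WT. A brighter Top2a probe outside the set (ILMN_2830661), detected on all 6 arrays, was at 10.56 and 10.55 in STKO, at 9.28 and 9.72 in TKO, and at 10.03 and 10.74 in WT. Its falls with ISD were 1.36-fold in TKO and 1.63-fold in WT. Cdc6, which loads the replicative helicase, was at 9.01 and 8.76 in STKO, at 7.63 and 8.52 in TKO, and at 7.18 and 8.13 in WT. The median difference of this list was -0.08 in STKO, -0.45 in TKO and -0.35 in WT, against -0.01, -0.06 and -0.13 over all tested probes. Of its tested probes, 3 of 36 in WT and 1 of 33 in TKO were 2-fold lower, beside 5.43% and 1.46% of all tested probes.

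The 3 interferon regulatory factor 2 binding proteins, corepressors that bind IRF2, all had members, with 4 of their 5 detected probes in the set. The shares over the whole array were 11.1% of detected genes and 8.64% of detected probes. Irf2bp2 (ILMN_1239801) was at 10.78 and 10.67 in STKO, at 8.40 and 10.29 in TKO, and at 9.33 and 11.03 in WT. Irf2bpl was at 11.19 and 11.24 in STKO, at 9.57 and 10.62 in TKO, and at 10.07 and 11.39 in WT. Irf2bp1 was at 8.91 and 9.16 in STKO, at 7.46 and 8.75 in TKO, and at 7.65 and 8.87 in WT. For each of these 3 probes the TKO and WT ISD arrays were the lowest of the 6 arrays. The rule chose members for low values there, and this grouping too was noticed in the data.

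On a clock list assembled after the values were seen, 3 of 9 detected genes had members, Per1, Per2 and Dbp, with 4 of 12 detected probes. The shares over the whole array were 11.1% of detected genes and 8.64% of detected probes. Per2, a repressor of the circadian clock, was at 7.22 and 7.17 in STKO, at 5.19 and 7.02 in TKO, and at 4.84 and 7.41 in WT, at least 2.38-fold lower in TKO and at least 2.84-fold lower in WT. Dbp, a transcription factor under clock control, was at 9.91 and 10.18 in STKO, at 8.40 and 9.35 in TKO, and at 8.77 and 10.31 in WT. The mock levels of Per2 lay between 7.02 and 7.41 in all genotypes. Over the clock list, 8 of 12 tested probes were 2-fold lower with ISD in WT, 1 of 13 in TKO and 0 of 13 in STKO. Over all tested probes the shares were 5.43%, 1.46% and 0.0674%. Members are among the probes of this list, so nothing is read from its counts. The time of day of the harvests is not given in the sources used here. Nr1d2, a clock repressor outside the set, was higher on each ISD array, at 8.44 and 8.24 in STKO, at 9.17 and 8.71 in TKO, and at 8.91 and 8.57 in WT (ILMN_2798993).

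Of 20 listed transcription factors of developing mesenchyme, 9 were detected on both mocks, and Foxc1 and Foxc2 were members. They supplied 2 of 13 detected probes, beside 8.64% of all detected probes. Foxc2, a forkhead factor of vessel and skeletal development, was at 8.46 and 8.21 in STKO, at 5.89 and 7.34 in TKO, and at 6.43 and 9.15 in WT. It was 2.74-fold lower with ISD in TKO and 6.60-fold lower in WT. Foxc1 was at 7.36 and 7.81 in STKO, at 6.11 and 6.50 in TKO, and at 7.02 and 7.73 in WT. Vgll4, a cofactor that holds TEAD factors in check, was at 7.35 and 7.71 in STKO, at 5.41 and 7.16 in TKO, and at 5.17 and 7.76 in WT. Its probe was not detected with ISD in TKO or WT. Of the 18 tested probes of the mesenchyme list in WT, 2 were 2-fold lower and 4 were higher, beside 5.43% and 7.46% of all tested probes. In TKO 2 of 14 were lower and 4 were higher, beside 1.46% and 3.98%.

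The remaining lists supplied 0 to 4 members each, beside the 8.64% of all detected probes that were members. In cholesterol synthesis, Mvk, Dhcr7, Msmo1 and Sqle supplied 4 of 19 detected probes. Msmo1, an enzyme of sterol demethylation, was at 10.57 and 10.50 in STKO, at 9.87 and 10.45 in TKO, and at 9.71 and 10.90 in WT, and it was the single probe of this list that was 2-fold lower in WT. Sqle, squalene epoxidase, was at 10.32 and 10.36 in STKO, at 9.74 and 10.18 in TKO, and at 10.01 and 10.90 in WT. Extracellular matrix and fibroblast genes supplied 1 of 29 detected probes, the growth factor receptor Pdgfra, at 8.79 and 8.82 in STKO, 7.21 and 7.88 in TKO, and 7.17 and 8.31 in WT. Srf, the serum response factor, was the 1 member of 12 immediate early probes. From 13 probes of targets of TGF-beta, BMP, Wnt, Notch and Hippo signalling, Id3 and Smad6 were members. Id3, an inhibitor of helix-loop-helix factors, was at 8.83 and 8.89 in STKO, at 6.35 and 7.64 in TKO, and at 7.42 and 8.47 in WT. None of the 16 detected probes of interferon-stimulated genes was a member. Of the tested probes of those genes, 10 of 16 were 2-fold higher with ISD in STKO, 11 of 21 in TKO and 21 of 21 in WT, and 0 were 2-fold lower. The shares of all tested probes that were higher were 0.404%, 3.98% and 7.46%. The list's median differences were 1.17 in STKO, 1.11 in TKO and 5.54 in WT, so the STKO arrays also differed with ISD for these genes.

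The other leading members had no common role. Mbp, the gene of myelin basic protein, was at 9.61 and 10.10 in STKO, at 6.64 and 8.62 in TKO, and at 5.48 and 9.73 in WT, at least 14.2-fold lower with ISD in WT. Slco4a1, an organic anion transporter, was at 10.78 and 11.47 in STKO, at 7.48 and 8.90 in TKO, and at 6.42 and 10.23 in WT. Arhgef39 was at 9.08 and 9.48 in STKO, at 5.59 and 7.75 in TKO, where it was not detected with ISD, and at 6.49 and 9.36 in WT. Each of the 3 stood higher on STKO mock than on TKO mock. Lhfpl2 was detected on all 6 arrays, at 12.20 and 12.30 in STKO, at 11.19 and 12.67 in TKO, and at 9.39 and 12.17 in WT. Trib2, a pseudokinase, was at least 2.56-fold lower with ISD in TKO and at least 5.5-fold lower in WT. The others were Fam78a, Plekhg3, Fam13c, Ccsap, Medag and 2 probes with no gene name in the annotation used (ILMN_1241610 and ILMN_1245335).

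Over the whole set, levels shifted as the rule required. The median level of the members was 7.48 with ISD and 7.57 in mock in STKO, 6.66 and 7.33 in TKO, and 6.51 and 7.53 in WT. In STKO, 0 members were 2-fold lower with ISD, beside 0.0674% of all tested probes. In TKO, 179 members were 2-fold lower, beside 1.46% of all tested probes, and in WT 622 members were, beside 5.43%. No member was 2-fold higher with ISD, beside 0.404% of all tested probes in STKO, 3.98% in TKO and 7.46% in WT. These counts only restate the rule on another scale. The members' differences had a median of -0.09 in STKO (quartiles -0.24 and 0.08), -0.63 in TKO (-0.85 and -0.46) and -0.99 in WT (-1.26 and -0.76). Over all tested probes the medians were -0.01, -0.06 and -0.13. In both TKO and WT, 148 members were 2-fold lower, 7 were 4-fold lower in TKO and 74 were 4-fold lower in WT. The difference was more negative in WT than in TKO for 1127 members and less negative for 151. This order is partly set by the stricter limit for WT. Of 1278 members, 1004 were detected on the TKO ISD array, 865 on the WT ISD array and 1258 on the STKO ISD array, and 219 were detected on neither the TKO nor the WT ISD array. Of the 622 members 2-fold lower in WT, 207 were undetected with ISD and have only a bound.

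The rule left 274 members undetected on TKO ISD and 413 on WT ISD, and many members had signals near background. Among probes detected on both mocks with a WT mock level from 6 to 7, 14.7% were members, against 4.31% from 10 to 12 and 0.488% above 12. On the scale of the rule, all probes detected on both mocks shifted with ISD by a median of 0.11 in STKO, -0.34 in TKO and -0.30 in WT. After quantile normalization those shifts were -0.01, -0.08 and -0.14. The rule's limits lay closer to the median probe in TKO and WT than their nominal size. Across the ways of processing tried, the member median ran from -1.09 to -0.45 in TKO and from -1.44 to -0.70 in WT. Applied to the neqc values, the same limits were met by 392 probes, 377 of them members. The share of members that also met the limits on neqc values was 18.4% at WT mock levels from 6 to 7, 52.6% from 10 to 12 and 80% above 12.

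At the limits, members and non-members differed by little. At the WT limit, the member Mms22l stood at -1.0 on the scale of the rule and Pcnt, just outside, at -0.996. At the TKO limit, Exosc4 was inside at -0.7002 and Dennd4b outside at -0.6999. At the upper STKO limit, Maml1 was inside at 0.694 and Ptchd1 outside at 0.703, and at the lower one Ndrg3 was inside at -0.692 and Il16 outside at -0.708. Without any limit on STKO the set would hold 1356 probes, 60 more above the upper limit and 18 more below the lower one. Few probes lower in both TKO and WT were thus set aside for their STKO value.

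Other probes of the same genes, left out by the rule, give a second reading of these genes. For 286 member genes, 399 further probes were detected on both mocks and were not members. Their median difference with ISD was -0.03 in STKO, -0.20 in TKO and -0.41 in WT, against -0.01, -0.08 and -0.14 over all probes detected on both mocks. In WT 85.5% of them were below 0, against 62.6% of all, and 34 (8.52%) were 2-fold lower, against 5.35% of all. In TKO 5 (1.25%) were 2-fold lower, against 1.45% of all. They come from the same arrays and share genes with members, and each had missed a limit of the rule, so they are no independent samples. Of 397 member genes with more than 1 probe detected on both mocks, 111 had every such probe in the set. The 2 probes of Per2 detected on the mocks show how they can part: the member was 1.84 lower with ISD in TKO and 2.57 lower in WT, and the other probe (ILMN_2987863) differed by -0.61 and -1.70, with 0.50 in STKO.

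Gene families were compared by the letters that open their symbols, for the 55 such stems with at least 15 detected genes, a limit set after the data were seen. The share of genes with a member was highest for the Klhl adaptors of cullin ubiquitin ligases, at 6 of 15 genes (40%), for the kinesins named Kif, at 7 of 19 (36.8%), and for the zinc-finger genes named Zfp, at 52 of 158 (32.9%). The share over all detected genes was 11.1%. The lowest shares were 0 of 24 for the ribosomal Rps genes, 0 of 19 for Cox and 1 of 49 for Atp, both largely of the respiratory chain and ion pumps. Families were not matched for level, and membership varied with it. Of detected probes, 14.7% were members at WT mock levels from 6 to 7 and 0.488% above 12. The part of level in the family shares was not tested. Klhl6 had 3 member probes, of which ILMN_2619528 was at 10.30 and 10.51 in STKO, at 8.98 and 10.40 in TKO, and at 8.82 and 11.07 in WT. Klhl21, an adaptor that acts in mitosis, was at 8.54 and 8.80 in STKO, at 7.29 and 8.29 in TKO, and at 6.40 and 8.84 in WT. Both of these probes were brightest on WT mock and lowest on WT ISD, while another member probe of Klhl6 (ILMN_1260233), detected on neither the TKO nor the WT ISD array, was lowest on TKO ISD.

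The zinc-finger members mostly left the limits once neqc values were used. Zfp41 (ILMN_2461345) was at 7.36 and 7.70 in STKO, at 5.89 and 7.04 in TKO, and at 5.56 and 7.82 in WT, where it was not detected with ISD. Zfp362 was at 9.78 and 10.01 in STKO, at 9.15 and 9.90 in TKO, and at 8.83 and 10.28 in WT. Over all 158 detected Zfp genes the median difference was -0.01 in STKO, -0.28 in TKO and -0.52 in WT, against -0.02, -0.08 and -0.15 over all detected genes. On neqc values 10 of the 158 (6.33%) still had a probe within the limits, against 3.51% of all detected genes. So did 6 of the 19 Kif genes (31.6%) and 3 of the 15 Klhl genes (20%).

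The mock arrays of the genotypes were compared next, which asks how the members stood where no DNA was added. The rule did not set these differences directly, but each mock array is part of it. TKO mock was 2-fold lower than WT mock for 102 members, beside 5.1% of all tested probes, and higher for 12, beside 4.44%. The members' own shares were 7.98% and 0.939%. The median difference was -0.17 (quartiles -0.52 and 0.12) against -0.02 over all tested probes (quartiles -0.32 and 0.28), and 66.3% of members were below 0. For the 377 members that also met the limits on neqc values the median was -0.34, with 58 lower and 4 higher. Both mock arrays chose the members, and the stricter limit for WT favours high WT mock values, so nothing is read from this direction.

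STKO mock stood above TKO mock for most members. It was 2-fold higher for 69, beside 2.89% of all tested probes, and lower for 9, beside 4.09%, which is 5.40% and 0.704% of the members. The median was 0.20 (quartiles -0.11 and 0.47) against 0.04 over all tested probes (quartiles -0.23 and 0.31), and 0.34 for the 377. TKO mock is one of the arrays that chose the members, so nothing is read from this direction. STKO mock and WT mock lay close together, with a median of 0.00 against 0.02 over all tested probes. Between them 19 members were 2-fold lower on STKO mock, beside 2.11% of all tested probes, and 10 were higher, beside 1.17%. These comparisons share the mock arrays and are given side by side. The summed macrophage markers were at 14.9 on STKO mock, 15.1 on TKO mock and 15.3 on WT mock, and the summed fibroblast markers at 13.2, 12.9 and 13.3, and their part in the mock differences was not tested.

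Single members show how these mock differences combined with ISD. Hpgd, the enzyme that inactivates prostaglandins, was at 10.77 and 10.81 in STKO, at 7.38 and 8.35 in TKO, and at 10.37 and 11.54 in WT. It was 9.16-fold higher on WT mock than on TKO mock and 5.51-fold higher on STKO mock than on TKO mock. Bmp4, a ligand of the BMP pathway, was at 8.19 and 8.38 in STKO, at 4.91 and 6.43 in TKO, and at 7.29 and 9.51 in WT. With ISD in TKO the Bmp4 probe was not detected. For both genes the TKO arrays were the lowest of the 6 and the ISD arrays were lower than mock in TKO and WT. Medag, a gene of adipocyte formation, was 3.85-fold higher on STKO mock than on TKO mock and 4.75-fold higher on WT mock than on TKO mock. Slco4a1 had a larger gap, 5.93-fold higher on STKO mock than on TKO mock and 2.36-fold higher on STKO mock than on WT mock.

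Some members went against the prevailing order of the mock arrays. Prokr1, a prokineticin receptor, was at 7.58 and 7.91 in STKO, at 7.02 and 7.68 in TKO, and at 5.38 and 6.27 in WT, so both knockouts stood above WT. With ISD in WT the Prokr1 probe was not detected. Rab7b, a GTPase of late endosomes, was at 11.94 and 12.11 in STKO, at 11.16 and 11.67 in TKO, and at 9.08 and 10.68 in WT. Slco2b1, an organic anion transporter, was at 6.33 and 6.69 in STKO, at 8.38 and 8.83 in TKO, and at 7.35 and 8.0 in WT, and it was highest in TKO. Dusp7, a phosphatase of ERK kinases, was at 9.01 and 8.98 in STKO, at 8.04 and 9.21 in TKO, and at 9.0 and 10.89 in WT. For Dusp7 WT mock was thus the highest of the 6 arrays and TKO ISD the lowest. Hyal1, a lysosomal hyaluronidase, was at 7.76 and 8.0 in STKO, at 7.89 and 8.34 in TKO, and at 5.45 and 7.29 in WT, where it was not detected with ISD. Eya1, a coactivator of developing organs, was at 5.31 and 4.87 in STKO, at 5.72 and 6.71 in TKO, and at 4.61 and 6.34 in WT. With ISD it was detected in neither TKO nor WT. It was not detected on either STKO array, so its small STKO difference says nothing about ISD, and the same caution holds for the 20 members undetected on STKO ISD and the 22 undetected on STKO mock. Zfp951, Smarca2 and the pseudogene Hmga2-ps1 were the other members with the largest differences between genotypes.

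With ISD on both arrays, STKO stood above the genotypes that carry Sting. STKO ISD was 2-fold higher than TKO ISD for 403 members, beside 6.37% of all tested probes, and lower for 1, beside 7.78%. It was 2-fold higher than WT ISD for 568, beside 6.88%, and lower for 1, beside 8.57%, and that 1 probe was Slco2b1 in both comparisons. The medians were 0.78 and 0.96, against 0.11 and 0.14 over all tested probes. Low TKO and WT ISD values were what the rule selected, so nothing is read from these counts. TKO ISD was 2-fold higher than WT ISD for 76 members, beside 3.45% of all tested probes, and lower for 37, beside 4.8%. The median was 0.26 against 0.03 over all tested probes. On the scale of the rule the same comparison gave 99 higher and 92 lower, a more even split. Hpgd and Bmp4 were the members furthest below WT ISD on TKO ISD, by -2.99 and -2.38 log2 units, and Hyal1 and Rab7b were furthest above it, by 2.43 and 2.08.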

How the data were processed

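RNA of mouse embryonic fibroblasts was measured on 6 Illumina arrays, 1 per group, with biotinylated cRNA per the labels' protocols. The authors deposited a table of linear intensity values, not background-subtracted by its lowest values (44.8 to 51.3), with a fraction beside each that the file headers call a detection p-value. The deposited fraction rises with the signal, is a whole multiple of 1 over the number of negative controls within 0.0047 of a multiple, and was read as 1 minus a detection p. A probe was detected above a fraction of 0.99. The deposited series matrix holds log2 values with direction unaltered, matched within 0.006 to log2 of quantile-normalized intensity, without background correction, minus each probe's median over the 6 arrays. The scanner software is not given in the sources used here.

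Intensities were processed with neqc of limma 3.58.1 in R 4.3.3 (offset 16), and all later steps used numpy 2.4.6 and pandas 2.3.3 under Python 3.11.15. The selection code was run on simulated arrays with large falls put only into probes well above background. That run does not cover the dim members. Gene names came from GEO's platform annotation: 34885 probes had 1 symbol, 18 several and 10378 none, and 34807 of the named ones were updated through their Entrez ID in RefSeq (GRCm38.p6). Among the members, 1133 had 1 symbol, 1 several and 144 none. Promoter windows from RefSeq matched 779 of 960 member genes by symbol.

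The members and the gene lists were chosen with earlier results of these data known. Genes were named by rule: the 25 members with the lowest mean difference in WT and TKO, every member on a list, and the 2 members with the largest difference in each direction between genotypes. Further genes were named from lists drawn up after their values were seen, as the text says. With 1 array per group no test was possible, and depth has no meaning for arrays beyond the detected probes. Alternatives changed the background correction, the offset, the scaling, the floor, the limits and the filter.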

Additional observations from a re-analysis of the deposited data

Results flagged for a closer look

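For a few named members ISD went with opposite signs in STKO and WT under every way of processing tried, by at least 0.3 log2 units upward in STKO. The rule fixed the WT sign, so any member with a positive STKO value has opposite signs, and 446 of 1261 tested members were above 0 in STKO. These differences between genotypes were not tested, because each value comes from 1 pair of arrays. Cxcr4, the receptor of Cxcl12, differed by 0.49 with ISD in STKO and by -3.06 in WT. Its STKO mock level (9.16) was below its WT mock level (11.02), so the starting levels were not the same. Dhcr7, the last enzyme of cholesterol synthesis by one route, differed by 0.34 in STKO and by -0.77 in WT. Smad6, an inhibitor of BMP signalling, differed by 0.34 in STKO and by -0.70 in WT, where it was not detected with ISD.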

How the results depend on the processing

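No paired analysis was possible because each group holds 1 array and the labels number no replicates. Leaving out an array leaves its group empty and was not done. The signs of the member medians of TKO and WT with ISD held under each of the 5 alternatives. So did those of the mock comparisons of TKO with WT and STKO with TKO, and of all 3 ISD comparisons. The rule chose the members on these same arrays, for low values with ISD in TKO and WT, so nothing is read from these signs. The cause of the changes in size was not tested. With an offset of 50, ISD left 72 members 2-fold lower in TKO and 366 in WT. TKO mock against WT mock then had 66 lower and 4 higher, STKO mock 3 lower than TKO mock, and 9 lower and 4 higher than WT mock. STKO ISD had 247 higher than TKO ISD and 334 higher and 0 lower than WT ISD, and TKO ISD 16 lower and 26 higher than WT ISD. Without background correction these counts were 45 and 280 with ISD, 51 and 1, 1 lower and 40 higher, 7 and 4, 191, 268 and 0, and 10 and 17, and the series matrix gave 48 and 285, 52 and 1, 1 and 40, 7 and 4, 193, 274 and 0, and 10 and 18. The median of TKO ISD against WT ISD was 0.17 in both, and that of STKO mock against WT mock 0.0014 without background correction and 0 in the series matrix. Median scaling gave 375 lower in TKO and 954 in WT, 759 higher on STKO ISD than on TKO ISD, 899 higher and 0 lower than on WT ISD, and medians of 0.019 with ISD in STKO and -0.011 for STKO mock against WT mock. On the rule's own scale 781 were lower in TKO and, by definition, 1278 in WT, with medians of 0.038 in STKO and -1.09 in TKO. There TKO mock had 181 lower than WT mock (median -0.28), STKO mock had 17 lower and 133 higher than TKO mock (median 0.31) and 43 lower and 17 higher than WT mock (median 0.016). STKO ISD had 1031 higher than TKO ISD (median 1.502) and 1105 higher and 0 lower than WT ISD (median 1.57), and TKO ISD had 92 lower than WT ISD (median 0.17). The rule held 392 probes on neqc values and 781 with both limits at -1, and stayed within 1.5 times its count with floors of 8 or 32, a looser detection limit or a narrower STKO range. For members that also met the limits on neqc values, an alternative chosen after seeing the data, TKO mock against WT mock had 58 lower and 4 higher (median -0.34), STKO mock against TKO mock 3 lower and 44 higher (median 0.34), and STKO mock against WT mock 8 lower and 2 higher (median -0.023). Members near background limit every count of 2-fold differences.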
